A study of Mus musculus with 6 samples.

Results

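The genes described here are 38 genes of heart muscle, read in RNA of whole mouse lung. They encode the sarcomere, the calcium cycle and the energy supply of cardiac muscle cells. All 38 were on the array, with 63 probe sets whose platform annotation gives a single member symbol, of 45101 probe sets in all. The list was chosen from earlier readings of these same 6 arrays, so its differences between groups are given as a description, without a test. After the dimmest 40% of probe sets were set aside (mean below an intensity of 74.9), 51 probe sets for 35 of the 38 genes were left. Myl2, Nppa and Nppb had no probe set above that level.

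Lung RNA of 6 FVB/N mice, with 2 mice in each of 3 groups, was hybridised singly to Affymetrix expression arrays, in a study of the BMPR2-R899X mutation and right ventricular systolic pressure (RVSP). Control mice carried the SM22-rtTA transgene alone. The other groups were heterozygous for SM22-rtTA and for TetO7-BMPR2-R899X, a truncated BMP receptor that rtTA switches on when doxycycline is fed. In one of these groups RVSP was near normal at death (normal RVSP) and in the other it was substantially raised (high RVSP). All 3 groups, controls included, carried the transactivator and ate doxycycline from 4 weeks of age for 9 weeks, up to death at 13 weeks. The SM22 (Tagln) promoter places the transgene in smooth muscle and not in the whole lung. The mice were female by the series description, although the label of control mouse 1 states no sex. Nothing in the labels ties a mouse of one group to a mouse of another, and replicate numbers are names only. With 2 mice per group, every group difference below rests on 4 animals.

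Heart muscle cells shorten when calcium, released from the sarcoplasmic reticulum through the ryanodine receptor, binds troponin on the thin filament and lets myosin of the thick filament pull on actin. Titin, the Z-disc and the M-band hold the filaments in register, and mitochondria, creatine kinase and myoglobin keep the contraction supplied with energy and oxygen. In rodents a sleeve of atrial-type heart muscle extends from the left atrium along the pulmonary veins into the lung, so transcripts of these genes are known from dissected lung tissue. Atrial muscle is marked by the light chains Myl4 and Myl7, by sarcolipin (Sln) and by atrial natriuretic peptide (Nppa), and ventricular muscle by Myl2, Myl3 and, among the myosin heavy chains, Myh7.

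As a check of the tissue, the 6 alveolar epithelial markers were all above the intensity limit. Sftpc, Ager and the endothelial marker Pecam1 were bright on every array, Ager between 24227 and 33249 and Pecam1 between 3293 and 6112. Median intensity per array lay between 128 and 141, and the mean after trimming 2% at each end was 500.0 on each array. The ratio of the 3-prime to the 5-prime beta-actin control probe sets, a reading of RNA integrity, ran from 1.27 to 1.89, with high-RVSP mouse 2 lowest and control mouse 1 highest. A further 2 probe sets carry the symbols of both Myh6 and Myh7 and were left out.

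In 33 of the 35 genes the lowest of the 6 mice was high-RVSP mouse 2, and in 29 of 35 the highest was normal-RVSP mouse 1. Taken as a median over the 35 genes, the difference in log2(intensity + 16) was -0.55 in high RVSP minus control (34 genes lower, 1 higher), -0.72 in high minus normal RVSP (35 lower) and 0.17 in normal RVSP minus control (27 higher, 8 lower). The comparisons share groups, so each difference is given side by side with the others and not as separate evidence. Over all 27022 probe sets the same medians were -0.00, 0.01 and -0.00. Without high-RVSP mouse 2 the 2 medians that involve high RVSP were -0.18 and -0.31, and without normal-RVSP mouse 1 the median of normal RVSP minus control was -0.06. Each of these medians therefore moved by more than 1.5 times with a single animal. In bulk lung RNA, fewer heart muscle cells and less RNA per heart muscle cell cannot be told apart.

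The members were chosen on these contrasts, so nothing is read from the counts that follow. None of the 51 member probe sets passed an adjusted p of 0.05 (limma, Benjamini-Hochberg over 27022 probe sets) in any of the 3 comparisons, against a background of 0% in each. At an unadjusted p under 0.05 limma gave 1174 of 27022 probe sets in normal RVSP against control, 1527 in high RVSP against control and 707 in high against normal RVSP. Both high-RVSP mice lay below both controls in 26 of 51 member probe sets, where 18.2% of all probe sets did so. They lay below both normal-RVSP mice in 30 of 51, with a background of 15.5%. Both normal-RVSP mice lay above both controls in 9 of 51, with a background of 14.4%. High-RVSP mouse 2 was lowest of all mice in 45 of 51 (background 14.8%), and normal-RVSP mouse 1 was highest in 39 of 51 (background 21.7%).

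**Figure D1:**
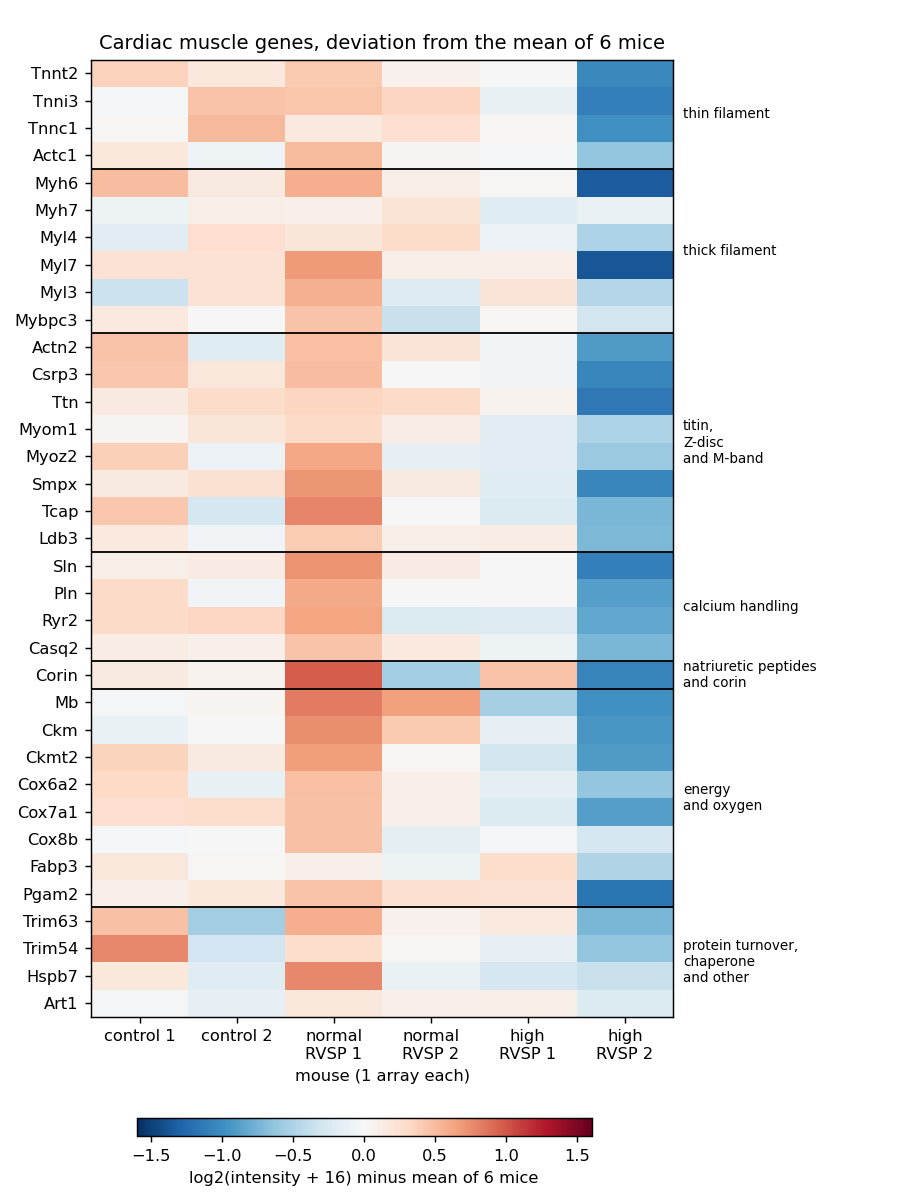
Each row is 1 of the 35 heart muscle genes above the intensity limit and each column 1 mouse; colour is log2(intensity + 16) minus the mean of that gene over the 6 mice. The column of high-RVSP mouse 2 is the lowest in 33 genes and that of normal-RVSP mouse 1 the highest in 29.

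Some of the genes share short elements upstream of their starts, a feature that the choice of genes did not use. RefSeq promoter windows (GRCm38.p6, 250 bases before to 50 bases after a start) were found for 35 of the 38 genes, 42 windows in all. These are not the 35 genes above the intensity limit. Sln, Tcap and Cox6a2 had no window, whereas Myl2, Nppa and Nppb are included. Both strands were searched for the CArG box, which serum response factor binds, and for the MEF2 site, which the MEF2 factors bind; both are control elements of muscle genes. A CArG box stood in 6 of 42 windows (14.3%) against 1.63% of all 32851 windows, in Actc1, Ldb3, Myl3, Myl7 and Myom1, where the 2 Ldb3 windows overlap and hold the same box. A MEF2 site stood in 5 of 42 windows (11.9%) against 3.19% of all windows, in Casq2, Mybpc3, Myoz2, Pgam2 and Ttn. The letters AGATAA of a GATA site, on either strand, stood in 16.7% of the members' windows against 11.2% of all, and AGGTGT of a T-box site in 11.9% against 13.7%. TATAAA on the sense strand stood in 19% of the members' windows against 8.32% of all. These are matches of letters and no measure of binding. The 250 bases before the start of 4 genes are shown, with the CArG box of Actc1, Myl7 and Myl3 or the MEF2 site of Ttn in capitals, because these genes span a thin-filament actin, an atrial and a ventricular light chain and titin, whose readings are set side by side below.
Actc1, chr2:114052876-114053125, minus strand: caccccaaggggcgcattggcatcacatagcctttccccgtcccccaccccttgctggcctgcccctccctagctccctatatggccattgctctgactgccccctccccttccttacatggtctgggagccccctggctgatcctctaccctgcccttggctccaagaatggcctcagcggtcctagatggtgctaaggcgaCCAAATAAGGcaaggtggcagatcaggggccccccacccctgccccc
Myl7, chr11:5898783-5899032, minus strand: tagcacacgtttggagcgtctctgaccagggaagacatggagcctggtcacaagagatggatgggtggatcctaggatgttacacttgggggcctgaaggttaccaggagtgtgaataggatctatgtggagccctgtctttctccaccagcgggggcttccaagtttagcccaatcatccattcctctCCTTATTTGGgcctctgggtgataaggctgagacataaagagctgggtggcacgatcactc
Myl3, chr9:110763428-110763677, plus strand: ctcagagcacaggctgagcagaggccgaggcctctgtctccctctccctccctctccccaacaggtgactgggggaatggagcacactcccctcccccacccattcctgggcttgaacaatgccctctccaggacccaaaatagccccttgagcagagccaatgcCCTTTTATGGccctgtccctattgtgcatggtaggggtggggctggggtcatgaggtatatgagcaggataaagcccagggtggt
Ttn, chr2:76982548-76982797, minus strand: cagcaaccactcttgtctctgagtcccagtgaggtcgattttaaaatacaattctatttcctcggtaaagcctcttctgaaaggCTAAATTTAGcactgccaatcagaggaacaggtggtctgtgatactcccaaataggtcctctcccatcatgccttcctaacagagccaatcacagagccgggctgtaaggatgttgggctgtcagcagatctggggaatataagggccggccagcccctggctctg
The CArG box began 47 bases before the start in Actc1, 61 bases before it in Myl7 and 85 bases before it in Myl3, and the MEF2 site of Ttn 166 bases before it.

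On the thin filament, all 4 genes read lower in the high-RVSP mice than in the controls on average, with a median difference of -0.77 in high RVSP minus control and -0.73 in high minus normal RVSP. Tnnt2, the troponin subunit that ties the complex to tropomyosin, read 3229 and 2809 in the controls, 3357 and 2627 in the normal-RVSP mice and 2507 and 1218 in the high-RVSP mice. High-RVSP mouse 2 stood at less than any other mouse, while mouse 1 of its group lay just under the controls. The differences of Tnnt2 on the log2 scale were -0.78 ± 0.31 (SE) from control and -0.76 ± 0.31 from normal RVSP, and normal RVSP minus control was -0.02 ± 0.31. Tnni3, the inhibitory subunit of cardiac troponin, read 962 and 1351 in the controls, 1337 and 1247 in the normal-RVSP mice and 904 and 453 in the high-RVSP mice. Both high-RVSP mice were below all others for Tnni3, with differences of -0.82 ± 0.31 from control and -0.99 ± 0.31 from normal RVSP. Tnnc1, the calcium-binding subunit, read 1549.8 and 2191 in the controls, 1696 and 1843 in the normal-RVSP mice and 1540.4 and 761 in the high-RVSP mice. High-RVSP mouse 1 was close to control mouse 1 for Tnnc1, so the low group mean (-0.76 ± 0.32 from control) came with mouse 2. Actc1, cardiac alpha-actin, read 7551 and 6379.9 in the controls, 9554 and 6916 in the normal-RVSP mice and 6615 and 4335 in the high-RVSP mice. For Actc1, normal-RVSP mouse 1 stood above every other mouse and high-RVSP mouse 2 below every other, and the differences were -0.37 ± 0.24 from control and -0.60 ± 0.24 from normal RVSP.

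Thick-filament genes were more uneven, with medians of -0.28 in high RVSP minus control and -0.43 in high minus normal RVSP over 6 of 7 genes. Myh6, the alpha myosin heavy chain that powers both chambers of the adult mouse heart, read 7299.9 and 5718 in the controls, 7744 and 5502 in the normal-RVSP mice and 5250.2 and 2053 in the high-RVSP mice. High-RVSP mouse 1 read 2.56 times high-RVSP mouse 2, and the difference from control in mean log2(intensity + 16) was -0.97 ± 0.39. Myh7, the beta myosin heavy chain of ventricle and slow skeletal fibres, read 848 and 959 in the controls, 952 and 1049 in the normal-RVSP mice and 783 and 838 in the high-RVSP mice. Here the high-RVSP pair lay close together, mouse 2 above mouse 1, and Myh7 was the only one of the 35 genes whose lowest mouse was high-RVSP mouse 1. Its differences of -0.15 ± 0.17 from control and -0.30 ± 0.17 from normal RVSP were small beside those of Myh6, and the gap between the 2 genes was not tested. Mybpc3, cardiac myosin-binding protein C, read 324 and 293 in the controls, 405 and 223 in the normal-RVSP mice and 296 and 234 in the high-RVSP mice. Normal-RVSP mouse 2 was the lowest of all for Mybpc3, and the difference from control was -0.22 ± 0.29, within its standard error.

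Of the atrial genes, Myl7 and Sln lay far apart within the high-RVSP pair and Myl4 less so. Myl7, the atrial regulatory light chain, read 4283 and 4289.6 in the controls, 5869 and 3894 in the normal-RVSP mice and 3935 and 1400.1 in the high-RVSP mice. Both controls agreed closely, high-RVSP mouse 1 was just above normal-RVSP mouse 2, and high-RVSP mouse 2 was far below. The log2 differences of Myl7 were -0.86 ± 0.42 from control and -1.02 ± 0.42 from normal RVSP. Myl4, the atrial essential light chain, read 2229 and 3022 in the controls, 2865 and 3073 in the normal-RVSP mice and 2356 and 1768 in the high-RVSP mice. High-RVSP mouse 1 lay between the 2 controls for Myl4, and the differences were -0.34 ± 0.21 and -0.54 ± 0.21. Sln, the sarcolipin that restrains the calcium pump in atrial muscle, read 1269 and 1297 in the controls, 1961 and 1296 in the normal-RVSP mice and 1194 and 548 in the high-RVSP mice. Normal-RVSP mouse 1 stood above the rest and high-RVSP mouse 2 below them, with differences of -0.65 ± 0.35 from control and -0.96 ± 0.35 from normal RVSP. Nppa, the remaining atrial gene, was too dim to use at 45 and 34.5 in the controls, 79.7 and 72.9 in the normal-RVSP mice and 52.3 and 33.8 in the high-RVSP mice.

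Among ventricular genes, Myl2, the ventricular regulatory light chain, was dim in every mouse, at 82 and 60.8 in the controls, 60.3 and 65.3 in the normal-RVSP mice and 70.5 and 77.7 in the high-RVSP mice. Its mean lay at 69.1, just under the intensity limit of 74.9. Myl3, the ventricular essential light chain, was dim but above the limit, at 132 and 203 in the controls, 261 and 146 in the normal-RVSP mice and 199 and 118 in the high-RVSP mice. Its groups overlapped in every comparison, with a difference of -0.08 ± 0.37 from control and -0.32 ± 0.37 from normal RVSP. Over the 3 atrial genes above the limit the median difference was -0.65 in high RVSP minus control, -0.96 in high minus normal RVSP and 0.19 in normal RVSP minus control. Over the 2 ventricular genes above the limit, Myl3 and Myh7, these medians were -0.12, -0.31 and 0.19. They depend on the Myl3 probe set used. The 2 other Myl3 probe sets above the limit differed by -0.74 ± 0.42 and -0.60 ± 0.41 in high minus normal RVSP. Over all 4 ventricular probe sets above the limit the medians were -0.12 in high RVSP minus control and -0.46 in high minus normal RVSP. Without high-RVSP mouse 2 the medians against control and normal RVSP were -0.12 and -0.33 for the atrial genes and 0.03 and -0.16 for the ventricular ones, and without control mouse 2 the ventricular median against control was 0.07. With 3 and 2 genes, and 2 ventricular genes also read in slow skeletal fibres, the difference between atrial and ventricular genes was not tested.

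**Figure D2:**
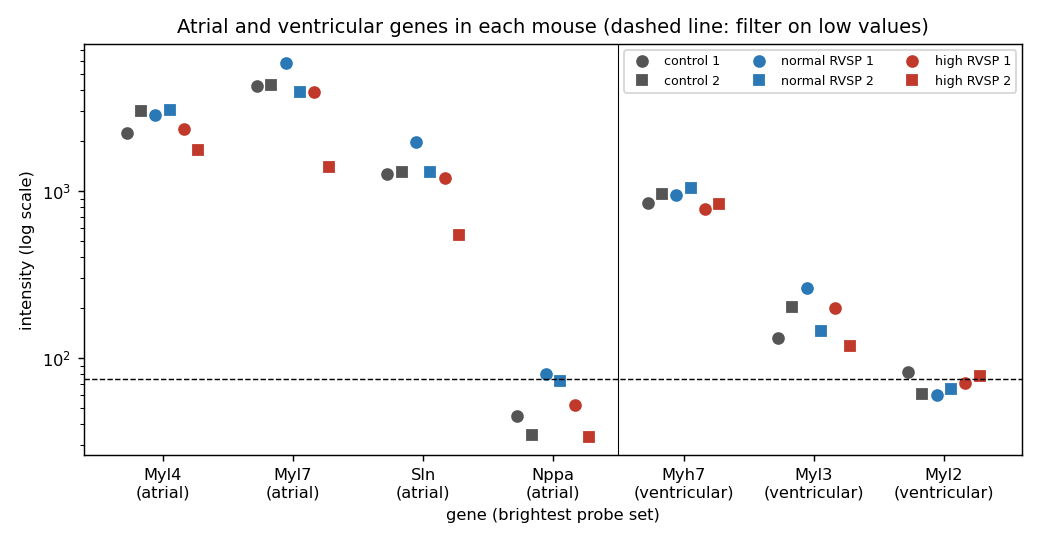
Intensity (log axis) of the atrial genes Myl4, Myl7, Sln and Nppa and the ventricular genes Myh7, Myl3 and Myl2, 1 point per mouse, colours by group and a dashed line at the intensity limit of 74.9; heights of different genes cannot be compared. High-RVSP mouse 2 is lowest for Myl7 at 1400.1 and for Sln at 548, whereas for Myh7 the 6 mice lie between 783 and 1049.

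Titin and the genes of the Z-disc and M-band had medians of -0.58 in high RVSP minus control and -0.80 in high minus normal RVSP over 8 genes. Ttn, the giant spring of the sarcomere, read 1637 and 1807 in the controls, 1879.7 and 1828 in the normal-RVSP mice and 1529.7 and 656 in the high-RVSP mice. The 5 other mice lay together for Ttn and high-RVSP mouse 2 lay at well under them, with differences of -0.77 ± 0.33 from control and -0.87 ± 0.33 from normal RVSP. Csrp3, the muscle LIM protein of the Z-disc, read 1124 and 945 in the controls, 1175 and 826 in the normal-RVSP mice and 805 and 396 in the high-RVSP mice. Both high-RVSP mice were below all 4 others for Csrp3, and the differences were -0.85 ± 0.32 and -0.78 ± 0.32. Actn2, the alpha-actinin that anchors thin filaments in the Z-disc, read 524 and 329 in the controls, 530.3 and 436 in the normal-RVSP mice and 366 and 193 in the high-RVSP mice. High-RVSP mouse 1 lay between the controls for Actn2, and the difference from control was -0.61 ± 0.33. Smpx, a small muscle protein, read 386 and 416 in the controls, 577 and 384 in the normal-RVSP mice and 300.2 and 160.2 in the high-RVSP mice. Smpx had the largest difference between high and normal RVSP of these 8 genes, -1.04 ± 0.32, with no overlap of the groups.

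Tcap, the telethonin that caps titin in the Z-disc, read 1389.9 and 840.2 in the controls, 1766 and 1032 in the normal-RVSP mice and 876 and 613 in the high-RVSP mice. The mice within each group differed by 1.65, 1.71 and 1.43 times for Tcap, so the control pair was farther apart than the group means (-0.55 ± 0.33 in high RVSP minus control). Myoz2, a calsarcin that tethers calcineurin to the Z-disc, read 708 and 503 in the controls, 837 and 491 in the normal-RVSP mice and 477 and 352 in the high-RVSP mice. The high-RVSP pair was below both controls and both normal-RVSP mice for Myoz2, with differences of -0.53 ± 0.30 and -0.63 ± 0.30. Myom1, a myomesin of the M-band, read 221 and 247 in the controls, 269 and 235 in the normal-RVSP mice and 189 and 147 in the high-RVSP mice. Its differences were -0.45 ± 0.23 and -0.55 ± 0.23, again with both high-RVSP mice lowest. Ldb3, the Z-disc protein cypher, read 319 and 278 in the controls, 384 and 306 in the normal-RVSP mice and 311 and 167 in the high-RVSP mice. High-RVSP mouse 1 lay within the range of the other groups for Ldb3, and the difference from control was -0.36 ± 0.30.

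Calcium handling genes had medians of -0.61 in high RVSP minus control and -0.73 in high minus normal RVSP over 4 genes, Sln among them. Ryr2, the cardiac ryanodine receptor, read 328 and 332 in the controls, 414 and 221 in the normal-RVSP mice and 225 and 140.3 in the high-RVSP mice. Both high-RVSP mice were below both controls for Ryr2 (-0.84 ± 0.33), but normal-RVSP mouse 2 read just below high-RVSP mouse 1. Casq2, the calsequestrin that buffers calcium in the reticulum, read 233 and 228 in the controls, 300.3 and 241 in the normal-RVSP mice and 201 and 122 in the high-RVSP mice. Every high-RVSP value was below every other for Casq2, with differences of -0.51 ± 0.28 and -0.72 ± 0.28. Pln, the phospholamban that restrains the calcium pump, read 898 and 698 in the controls, 1111 and 719 in the normal-RVSP mice and 724 and 386 in the high-RVSP mice. High-RVSP mouse 1 lay between the controls for Pln, and the differences were -0.57 ± 0.32 and -0.74 ± 0.32.

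The natriuretic peptides, hormones that the stretched heart releases, gave no usable reading. Nppb read 71.9 and 71.4 in the controls, 37.8 and 23.1 in the normal-RVSP mice and 8.7 and 39.2 in the high-RVSP mice, with a single dim probe set. Corin, the protease that activates atrial natriuretic peptide, was above the limit at 118 and 110.3 in the controls, 221 and 66.9 in the normal-RVSP mice and 149.9 and 41.7 in the high-RVSP mice. Its within-group ratios were 1.07 in the controls, 3.31 in normal RVSP and 3.6 in high RVSP, and the difference of -0.41 ± 0.59 from control was smaller than its standard error.

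Energy and oxygen genes had medians of -0.54 in high RVSP minus control and -0.82 in high minus normal RVSP over 8 genes. Mb, myoglobin, read 636 and 662 in the controls, 1158 and 1027 in the normal-RVSP mice and 440.1 and 317 in the high-RVSP mice. For Mb both normal-RVSP mice were above both controls, and both high-RVSP mice below them. The differences of Mb were 0.73 ± 0.20 in normal RVSP minus control, -0.77 ± 0.20 in high RVSP minus control and -1.51 ± 0.20 in high minus normal RVSP. High-RVSP mouse 1 read 1.39 times mouse 2 for Mb, a smaller gap than the 2.81 times of Myl7. Ckm, muscle creatine kinase, read 299.8 and 326 in the controls, 549.6 and 437 in the normal-RVSP mice and 292 and 162 in the high-RVSP mice. Ckm shared the order of Mb by group mean, with differences of 0.62 ± 0.29, -0.49 ± 0.29 and -1.11 ± 0.29, although high-RVSP mouse 1 almost reached control mouse 1. Ckmt2, the mitochondrial creatine kinase of muscle, read 1099 and 944 in the controls, 1366 and 873 in the normal-RVSP mice and 695 and 448 in the high-RVSP mice. For Ckmt2 both high-RVSP mice were below all others, with differences of -0.85 ± 0.28 and -0.95 ± 0.28, while normal RVSP minus control was 0.10 ± 0.28.

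Cytochrome c oxidase has muscle isoforms of several subunits, and 3 were on the list. Cox7a1 read 465 and 466 in the controls, 534 and 403 in the normal-RVSP mice and 326 and 201 in the high-RVSP mice. The controls agreed and both high-RVSP mice were lower, a difference of -0.82 ± 0.26. Cox6a2 read 958 and 705 in the controls, 1075 and 807 in the normal-RVSP mice and 693 and 491 in the high-RVSP mice. The differences of Cox6a2 were -0.48 ± 0.25 from control and -0.66 ± 0.25 from normal RVSP, beside a control pair that differed by 1.36 times. Cox8b, which brown fat also uses, read 334 and 339 in the controls, 474 and 303 in the normal-RVSP mice and 333 and 278 in the high-RVSP mice. Its difference of -0.14 ± 0.25 from control was below its standard error, and 5 of the 6 mice lay within a narrow band. Fabp3, the fatty acid carrier of heart, read 1118 and 996 in the controls, 1035 and 922 in the normal-RVSP mice and 1196 and 698 in the high-RVSP mice. High-RVSP mouse 1 was the highest and mouse 2 the lowest of all mice for Fabp3, so the pair spanned the other 4 and the differences were -0.20 ± 0.25 and -0.09 ± 0.25. Pgam2, the muscle phosphoglycerate mutase, read 177 and 189 in the controls, 235 and 202 in the normal-RVSP mice and 199 and 65.2 in the high-RVSP mice. Only high-RVSP mouse 2 was low for Pgam2, with the pair 3.05 times apart.

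The 4 remaining genes, of protein turnover, chaperone function and other roles, had medians of -0.27 in high RVSP minus control and -0.57 in high minus normal RVSP. Hspb7, a small heat shock protein of heart muscle, read 727 and 561 in the controls, 1107 and 598 in the normal-RVSP mice and 534 and 500.3 in the high-RVSP mice. On this brightest Hspb7 probe set the high-RVSP pair was tight and below all 4 others, with differences of -0.30 ± 0.29 and -0.64 ± 0.29. Of the other Hspb7 probe sets above the limit, one read 394 and 282 in the high-RVSP mice. The dimmest read 179 and 130 in them, and its lowest mouse was control mouse 2 at 127. Trim63 (MuRF1), a ubiquitin ligase of the sarcomere, read 135 and 58.2 in the controls, 147 and 98.6 in the normal-RVSP mice and 105 and 49.9 in the high-RVSP mice. Its relative Trim54 read 163 and 68.8 in the controls, 111 and 90.3 in the normal-RVSP mice and 79.2 and 51.4 in the high-RVSP mice. Within the controls Trim63 differed by 2.31 times and Trim54 by 2.37 times between the 2 mice, more than the group differences. Art1, a muscle ADP-ribosyltransferase, read 171 and 157 in the controls, 199.7 and 185 in the normal-RVSP mice and 187 and 147 in the high-RVSP mice. It was the only gene of the 35 with a high-RVSP mean above control, by 0.02 ± 0.24.

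**Figure D3:**
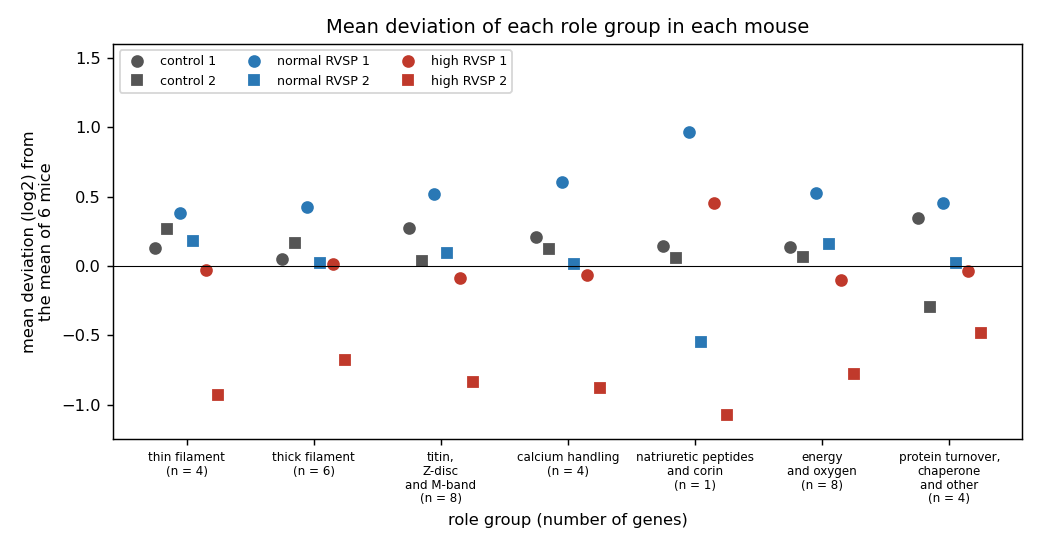
Mean deviation from the gene mean (log2) per mouse, averaged over the genes of each role; 1 point per mouse, colours by group. High-RVSP mouse 2 is the lowest point and normal-RVSP mouse 1 the highest in each of the 7 roles, 1 of which holds Corin alone.

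By the median over the 35 genes, the 2 high-RVSP mice differed from each other about as widely as the groups did. Averaged over the 35 genes, the deviation from the gene mean was 0.18 and 0.06 in the controls, 0.50 and 0.07 in normal RVSP, and -0.04 and -0.78 in high RVSP, with a pooled within-group SD of 0.35. Mouse 1 minus mouse 2 of a group, an order that carries no meaning beyond its sign for that pair, had a median over the 35 genes of 0.09 in the controls, 0.41 in normal RVSP and 0.68 in high RVSP. Without regard to sign, the median difference within these pairs over the 35 genes was 0.19, 0.41 and 0.68. The median absolute difference within these pairs over all probe sets was 0.27, 0.25 and 0.18. The members of the high-RVSP pair were thus far apart in these genes on arrays that were otherwise the most alike pair. In 24 of 35 genes the gap within the high-RVSP pair was larger than the difference between high RVSP and control, and in 18 of 35 larger than that between high and normal RVSP. A gap between single mice varies more than a difference between means of 2 mice. The same share over all probe sets was not computed, so nothing is read from these counts. The 11 genes with a pair gap no larger than the difference from control were Myh7, Ryr2, Mb, Ckmt2, Cox6a2, Cox7a1, Myom1, Myoz2, Trim54, Hspb7 and Tcap.

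Taken singly, high-RVSP mouse 2 was below both controls in all 35 genes and below both normal-RVSP mice in 34, with medians of -0.88 from the control mean and -1.12 from the normal-RVSP mean. High-RVSP mouse 1 was below both controls in 21 of 35 genes and below both normal-RVSP mice in 24, with medians of -0.18 and -0.31. Among all probe sets, high-RVSP mouse 1 was below both controls in 30% and below both normal-RVSP mice in 29.4%, and mouse 2 in 32.7% and 30.4%. The beta-actin ratio, 1.36 in high-RVSP mouse 1 and 1.27 in mouse 2, was close within this pair. With that ratio as a covariate the medians over the 35 genes were -0.31 in high RVSP minus control and -0.55 in high minus normal RVSP.

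**Figure D4:**
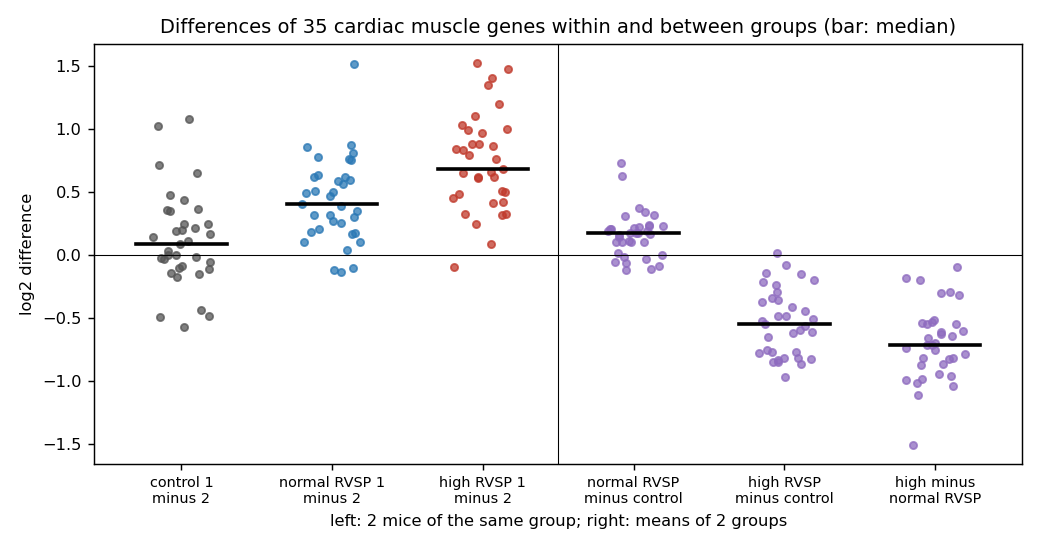
Log2 differences of the 35 genes, 1 point per gene with a bar at the median: on the left mouse 1 minus mouse 2 within each group, on the right between group means. The high-RVSP pair has a median of 0.68, between the group differences of -0.55 and -0.72 in size.

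Second probe sets gave a further reading of 9 genes, through 16 probe sets above the limit. They measure the same RNA on the same arrays, so they bear on the probe and not on the animals. In high minus normal RVSP all 16 had the sign of the brightest probe set of their gene (100%), against 57.7% of 10299 second probe sets over the array. In high RVSP minus control 11 of 16 agreed (68.8%, against 52.9% over the array), and in normal RVSP minus control 13 of 16 (81.2%, against 56.8%). The members were chosen on these contrasts. A share above that of the array follows in part from that choice, and nothing is read from it. High-RVSP mouse 2 was lowest in 12 of the 16. For Tnnt2, one other probe set read 2465 and 2147 in the controls, 2642 and 2253 in the normal-RVSP mice and 1979.6 and 804 in the high-RVSP mice, with an r of 0.99 to the first over the 6 mice. The remaining Tnnt2 probe set was dim, with an r of 0.73 and overlapping groups in every comparison. Its differences were -0.31 ± 0.41 from control and -0.24 ± 0.41 from normal RVSP. All 3 probe sets of Pln agreed, with differences of -0.74, -0.78 and -0.75 in high minus normal RVSP.

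Disagreement against control was seen for Myh6, Myl3, Ttn, Art1 and Ldb3. The other Myh6 probe set was dim and read 99.6 and 101 in the controls, 264 and 182 in the normal-RVSP mice and 215 and 56.8 in the high-RVSP mice. It put the normal-RVSP mice 1.01 ± 0.49 above control and the high-RVSP mean 0.15 ± 0.49 above it, whereas the bright probe set differed by 0.01 ± 0.39 and -0.97 ± 0.39. For Ttn the other 3 probe sets above the limit differed from control by -1.54 ± 0.52, -0.14 ± 0.61 and 0.32 ± 0.36, around the -0.77 ± 0.33 of the brightest. The lowest correlation was in Ldb3, where one dim probe set read 61.2 and 137 in the controls, 134 and 159 in the normal-RVSP mice and 159 and 97.4 in the high-RVSP mice and had an r of 0.22 to the brightest. The 2 other Myl3 probe sets gave 0.02 ± 0.42 and -0.37 ± 0.41 in high RVSP minus control, and both were lowest in high-RVSP mouse 2. The brightest and the other Art1 probe set gave 0.02 ± 0.24 and -0.55 ± 0.46. Close relatives such as Myh6 and Myh7 share long stretches of sequence, and cross-hybridisation between them was not tested. A further 12 member probe sets were below the limit, the nearest being those of Myl2 at a mean of 69.1, Myl4 at 55.0 and Nppa at 50.8, and the nearest above it were those of Ttn at 79.4, Trim54 at 88.7 and Art1 at 92.0.

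**Figure D5:**
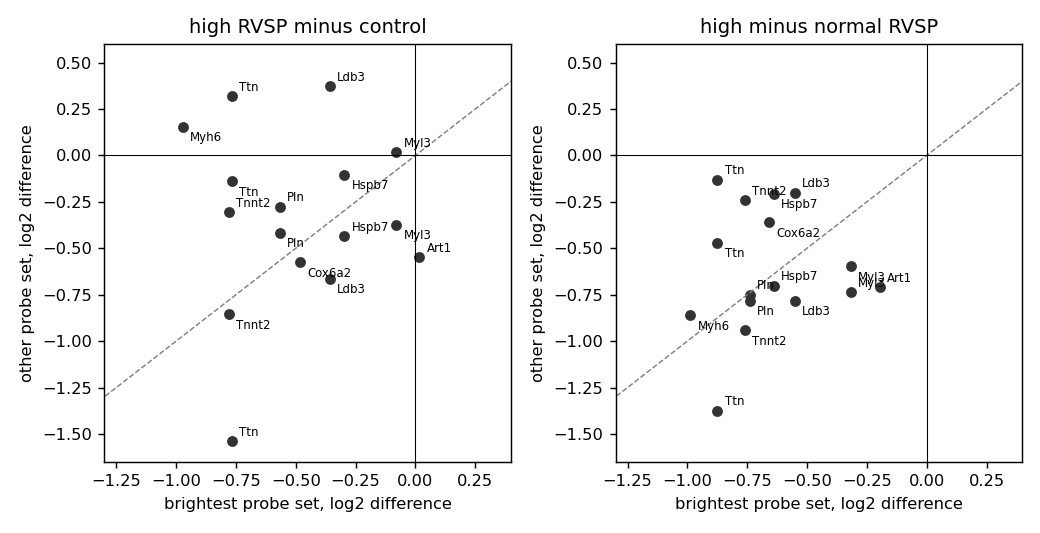
Log2 difference of each of the 16 second probe sets (vertical axis) against that of the brightest probe set of the same gene (horizontal axis), in high RVSP minus control and in high minus normal RVSP; the dashed line marks equality. In high minus normal RVSP all 16 points are below 0 on both axes, and in high RVSP minus control 11 of 16 have the same sign on both.

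Among themselves the genes varied together over the 6 mice, mainly through 2 animals. The correlation of a gene with the mean of the others had a median r of 0.92, a lowest value of 0.40 (Myh7) and was above 0.8 in 26 of 35 genes (n = 6 mice, a description). Without high-RVSP mouse 2 and normal-RVSP mouse 1, the mice farthest from the median, the median r over the other 4 mice was 0.61, with 9 of 35 genes above 0.8 and 9 below 0.

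Other genes of heart muscle, from a list that shares no member with the 38, had negative medians in both comparisons with high RVSP and a median near 0 in normal RVSP minus control. Of 44 listed, 36 were on the array and 30 above the limit, with medians of -0.36 in high RVSP minus control (25 lower), -0.37 in high minus normal RVSP (28 lower) and -0.02 in normal RVSP minus control (18 lower). High-RVSP mouse 2 was lowest in 19 of the 30. The summed intensity of the 36 on the array was 23663 and 21422 in the controls, 26312 and 20489.5 in the normal-RVSP mice and 20144 and 16942 in the high-RVSP mice. The brightest genes, Atp2a2 and Nebl, dominate this sum. Nebl differed by -0.11 ± 0.19 both from control and from normal RVSP, and Atp2a2 by -0.53 ± 0.22 and -0.61 ± 0.22. Trdn, the triadin that links the ryanodine receptor to calsequestrin, read 198 and 107 in the controls, 230.0 and 157 in the normal-RVSP mice and 92.3 and 52.6 in the high-RVSP mice. Both high-RVSP mice were below all others for Trdn, a difference of -1.26 ± 0.38 from normal RVSP. Synpo2l, a Z-disc protein, read 299 and 267 in the controls, 254 and 247 in the normal-RVSP mice and 142 and 143 in the high-RVSP mice. Here the high-RVSP mice were nearly equal, and the difference from normal RVSP was -0.75 ± 0.21. Lmod2, a leiomodin of the thin filament, differed by -0.71 ± 0.26, and Myocd, the coactivator myocardin that smooth muscle also uses, by 0.65 ± 0.47 with one low normal-RVSP mouse.

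Of 12 further atrial genes 6 were above the limit, with medians of -0.45 in high RVSP minus control (5 lower), -0.13 in high minus normal RVSP (4 lower, 2 higher) and 0.05 in normal RVSP minus control (2 lower). Mybphl, an atrial myosin-binding protein, read 303 and 222 in the controls, 456 and 216 in the normal-RVSP mice and 192 and 90.2 in the high-RVSP mice, a difference of -1.15 ± 0.42 from normal RVSP. As for Myl7 and Sln, normal-RVSP mouse 1 was highest and high-RVSP mouse 2 lowest. Kcnj5, a subunit of the atrial potassium channel that acetylcholine opens, differed by -0.91 ± 0.45, with high-RVSP mouse 2 at 21.4 and the other 5 mice between 81.3 and 110.1. Nr2f2 and Dkk3, which other lung cells also express, differed by 0.19 ± 0.33 and -0.16 ± 0.18, and Tbx5 and Stard10 by -0.11 ± 0.29 and 0.06 ± 0.15. Over the 6 mice, r with the members' mean deviation was -0.30 for Nr2f2, -0.10 for Dkk3, 0.33 for Tbx5 and -0.33 for Stard10. It was 0.98 for Mybphl and 0.86 for Kcnj5. Which lung cells gave the readings of these further atrial genes was not tested. Of 5 further ventricular genes only Hey2 and Irx5 were above the limit, with differences of 0.24 ± 0.24 and 0.13 ± 0.22 in high minus normal RVSP. In high RVSP minus control they were 0.28 ± 0.24 and 0.35 ± 0.22, and in normal RVSP minus control 0.04 and 0.21. For Hey2 and Irx5, r with the members' mean deviation was -0.82 and -0.52, and their source in the lung was not tested. Irx4, a transcription factor of the ventricle, stayed between 3.99 and 47.6 in all mice. Bmp10, an atrial growth factor, likewise stayed between 6.6 and 43.9.

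The genes with the pattern most like that of the 38, by Pearson correlation over the 6 mice with their mean deviation, were led by Gfra4 and Chd8 (both r = 0.99), then Mybphl and Atp2a2 (both r = 0.98). They head a ranking drawn from the 27022 probe sets tested, and with only 6 mice some r this high are expected by chance. How many of the genes listed here are such cases was not tested. Atp2a2, the calcium pump of the sarcoplasmic reticulum, read 7363 and 6599 in the controls, 8651 and 6209.6 in the normal-RVSP mice and 5642 and 4094 in the high-RVSP mice. The order of mice for Atp2a2 was that of Actc1 at both ends, normal-RVSP mouse 1 highest and high-RVSP mouse 2 lowest. The other 8 were Snrk, Dnajc9, Snx9, Samd4b, 2410004P03Rik, Garre1, Ptpa and Shroom3, all at r of 0.97 to 0.98. Without high-RVSP mouse 2 and normal-RVSP mouse 1, r over 4 mice was 0.98 for Dnajc9, 0.97 for Atp2a2, 0.96 for Mybphl, 0.89 for Samd4b and 0.87 for 2410004P03Rik, and between 0.28 (Garre1) and 0.78 (Gfra4) for the other 7.

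Markers of other tissues were read for the same mice. Of 24 skeletal muscle fibre genes 6 were above the limit, and the fast myosin Myh4 stayed between 14.4 and 30.9 in all mice. The summed intensity of all 24 skeletal fibre genes, those below the limit included, was 1099 and 1129.8 in the controls, 1379.6 and 1170.3 in the normal-RVSP mice and 1353 and 1221 in the high-RVSP mice. In this sum the 2 high-RVSP mice were not the lowest. The 6 skeletal fibre genes above the limit had a median of 0.06 in high minus normal RVSP (5 higher, 1 lower). Acta1, skeletal alpha-actin, had the largest of these differences, 0.52 ± 0.26, opposite in sign to Actc1. Ucp1, which defines brown fat, stayed between 3.7 and 13.9, and 2 of 5 brown fat genes were above the limit. The medians of high minus normal RVSP were -0.00 for these brown fat genes, -0.20 for 3 of 7 white fat genes, 0.07 for 2 of 6 cartilage genes, 0.14 for 2 of 8 thymus genes, -0.12 for 5 of 6 large airway genes and 0.09 for 3 of 7 nerve genes. For the lung's own cells they were -0.01 over 6 of 6 endothelial genes and -0.13 over 6 of 6 alveolar epithelial genes.

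Some lists differed between the same mice. High minus normal RVSP was below 0 for all 13 smooth muscle genes (median -0.23), and high RVSP minus control for 8 (median -0.05). Their summed intensity was 39631 and 40036 in the controls, 47137 and 41326 in the normal-RVSP mice and 40632 and 38721 in the high-RVSP mice. Normal-RVSP mouse 1 was highest and high-RVSP mouse 2 lowest in this sum, which the brightest genes dominate. Gene by gene, control mouse 1 was lowest in 7 of the 13 and high-RVSP mouse 2 in 4, unlike the heart muscle genes. Mesothelial and epicardial genes, 6 of 7 above the limit, had a median of 0.25 in high minus normal RVSP (4 higher, 2 lower). The largest of these differences was that of Upk3b, a mesothelial surface protein. It read 1098 and 817 in the controls, 1115 and 817 in the normal-RVSP mice and 1219 and 1632 in the high-RVSP mice. The 2 lower genes were Wt1 at -0.11 ± 0.28 and Msln at -0.01 ± 0.23. Of 5 red cell genes 3 were on the array and 2 above the limit. The summed intensity of the 3 was 1046 and 2261 in the controls, 2378 and 857 in the normal-RVSP mice and 704 and 3919 in the high-RVSP mice. In this sum high-RVSP mouse 2 was the highest of all mice and high-RVSP mouse 1 the lowest. Most of it was Alas2, the first enzyme of haem synthesis in red cells, at 552 and 3388 in high-RVSP mice 1 and 2. Slc4a1, the other gene above the limit, was highest in control mouse 2 at 504, and read 95.7 and 452 in the high-RVSP mice. The part of smooth muscle, mesothelium and blood in the readings of heart muscle genes was not tested.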

How the data were processed

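The deposited values are intensities on a linear scale, 1 per probe set and array. The sources used here do not name the algorithm behind them. Per the labels' protocols, RNA was purified on columns from the right lung, flushed with saline after a heparin injection. Values were taken as log2(intensity + 16), without further normalization, which understates differences of dim probe sets. The 64 control probe sets and the 18015 in the lower 40% by mean were left out, and 27022 stayed. All 6 arrays entered a fit of group means in limma 3.58.1 under R 4.3.3 (3 residual and 5.06 prior degrees of freedom, intensity trend), with Benjamini-Hochberg adjustment at 0.05. The procedure was tested on simulated data. All 63 member probe sets matched a RefSeq gene table by gene identifier. A gene is represented by its probe set of highest mean. Members, lists, roles and rules were chosen with earlier results of these data known. The naming rule gives every mouse's value for thin filament, thick filament, calcium and natriuretic genes and for Mb, Ckm and Cox8b, the 12 genes most like the members, and up to 4 genes of a list by size of the high minus normal RVSP difference; values of the other members were added after they were seen. Values after ± are standard errors. The alternatives were the pseudocount, the filter, quantile normalization, an unmoderated model, the 4 compared arrays only, all member probe sets, the beta-actin ratio, and arrays left out.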

Additional observations from a re-analysis of the deposited data

How the results depend on the processing

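Over 15 results and their alternatives, 211 alternative values lay within the spread between replicates or within 1.5 times of the reported ones, 13 lay farther off and 1 passed the threshold. Some medians near 0 turned sign. In normal RVSP minus control the members' median of 0.17 was -0.06 without normal-RVSP mouse 1 and -0.03 without it and control mouse 1 together, where the atrial median of 0.19 was -0.00. In high RVSP minus control the ventricular median of -0.12 was 0.07 without control mouse 2 and 0.03 without high-RVSP mouse 2. Leaving out 1 array at a time, the members' median ranged from -0.88 to -0.18 in high RVSP minus control and from -1.12 to -0.31 in high minus normal RVSP, and the atrial median from -1.20 to -0.12 and from -1.51 to -0.33, the end nearest 0 being without high-RVSP mouse 2. The percent of members lower in normal RVSP than in control (22.9%) ranged from 5.71% to 57.1%, highest without normal-RVSP mouse 1. It was 2.86% with the beta-actin ratio as covariate and 54.5% without control mouse 1 and normal-RVSP mouse 1 together, arrays that earlier results set apart. Without both, the ventricular median in normal RVSP minus control was -0.16 in place of 0.19, and 1 member probe set, of Mb, passed in high against normal RVSP (limma, adjusted p = 0.0043, log2 difference -1.42, 56 of 27022 probe sets in all), with 1 array left in each of the control and normal-RVSP groups, assumed to vary like the rest; as the members were chosen on this contrast, it is no independent evidence. With every array left out in turn, 0 member probe sets passed in each comparison. No paired analysis was possible because the labels give no replicate numbers that pair mice across groups. The number of arrays limits the precision, and Myl2, Nppa and Nppb lay too near background for a difference to be read.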
